A study of Prunus persica with 20 samples.

Results

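Of 26811 peach genes in the count table, 69 were graded between the accessions: lowest in both nectarines, MN and Sunraycer, higher in the peach TN7 and highest in the peach TN11. They were selected on these measured levels. Fruit at the fruit set stage was compared by RNA sequencing in MN (the Maravilha nectarine mutant, which arose from a peach and is stated Gg, 5 libraries), Sunraycer (a commercial nectarine, stated gg, 5 libraries), TN7 (a peach, stated Gg, 4 libraries) and TN11 (a peach, stated GG, 5 libraries). No treatment is stated, the stage is the same in all, and each accession stands alone for its combination of genotype and fruit surface. The study's question was how fruit hair formation is regulated, above all in MN. Whether libraries of an accession came from separate trees or fruits is not stated, so the spread between them may be technical.

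Peach fruit is covered by trichomes, hairs that grow out of single epidermal cells, and nectarines lack them. The G locus decides between both surfaces, with the hairy allele G dominant over g. The gene at this locus is PpMYB25 (Prupe.5G196100.v2.1), which encodes a MYB-type regulator of transcription without which the hairs do not form. Related MYB factors act in the outgrowth of epidermal cells in other plants. MN and TN7 share the stated genotype Gg and differ in surface. With 1 accession for each combination, genotype and any other difference between accessions cannot be told apart.

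The members were chosen by measured values, namely mean CPM (a gene's count per 1000000 counts of its library). A gene needed a mean of at least 1 CPM in TN7, a TN7 mean at least 3 times the higher of the 2 nectarine means, and a TN11 mean at least 1.5 times that of TN7. PpMYB25 itself was left out. Differences of nectarines from TN7, and of TN7 from TN11, were therefore fixed by the choice of genes and are described without a test. The deposited table does not pair its IDs with names, and 0 of the 26811 IDs matched the RefSeq annotation at hand, so no member is given a name, role or sequence here, and neither pathway lists nor tissue markers could be looked up. Gene lengths were lacking as well, so CPM is compared between libraries for one gene and not between genes.

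Library totals ran from 14890206 to 24474843 counts. The lowest count of any member in a peach library was 13. Of the whole table, 19360 genes, all 69 members among them, had enough counts to be tested, and the members passed through their level in the peaches.

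At the edges of the choice the members passed into genes of nearly the same values. Prupe.1G580500.v2.1 entered with a TN11 mean 1.503 times its TN7 mean, and Prupe.4G064100.v2.1 stayed out at 1.499 times. Prupe.6G324200.v2.1 had a TN7 mean 3.03 times the higher nectarine mean, and Prupe.1G041200.v2.1, outside, had 2.86 times. Prupe.4G209300.v2.1 had 1.0033 CPM in TN7, against 0.98 CPM for Prupe.1G157100.v2.1, which was too low. A graded pattern was the less common form among genes that were high in both peaches. With the same minimum of 1 CPM and 3 times the nectarines, 326 genes were high in both TN7 and TN11. Of these, 69 were graded towards TN11, 243 were within 1.5 times of each other in the peaches, and 14 were graded the opposite way, at least 1.5 times higher in TN7.

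The 69 genes together had a summed level of 114 ± 5.13 CPM in MN, 100 ± 3.90 CPM in Sunraycer, 1409 ± 348 CPM in TN7 and 2437 ± 479 CPM in TN11 (SD, n = 5, 5, 4 and 5). The nectarine sums ran from 107 to 121 CPM in MN and from 94.5 to 104 CPM in Sunraycer. In bulk RNA of fruit, fewer cells that express a gene and less RNA per cell cannot be told apart. The sum in TN7 was 0.578 of that in TN11. Gene by gene, the ratio of the TN7 to the TN11 mean had a median of 0.589 and ran from 0.154 to 0.665, with 33 genes at 0.6 or above, 20 between 0.5 and 0.6, 8 between 0.4 and 0.5, 6 between 0.25 and 0.4 and 2 below 0.25. The 33 genes at 0.6 or above lay next to the limit that the choice set.

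**Figure D1:**
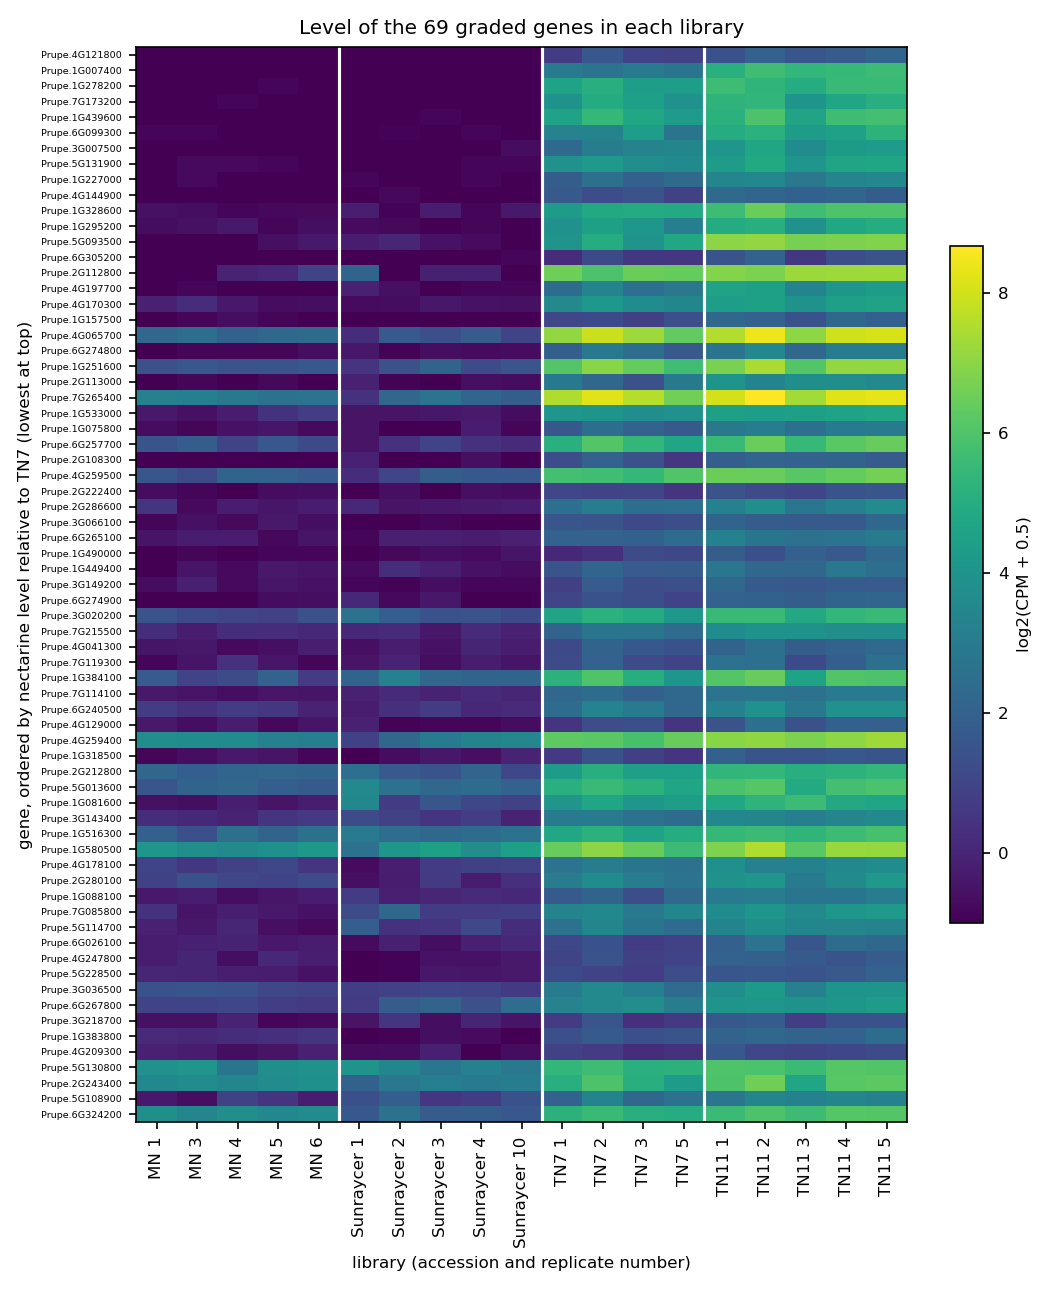
Level of each of the 69 genes (rows, ordered by the higher nectarine mean relative to TN7) in each library (columns), as log2(CPM + 0.5). The nectarine columns are darker than the peach columns in nearly every row, and the TN7 2 column is brighter than its neighbours in many rows while TN11 3 is darker.

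The nectarine level relative to TN7, which the choice also limited, varied among the members. The higher nectarine mean was 10.3% of the TN7 mean at the median and ran from 0% to 33.1%. In 12 genes it was below 1%, in 13 between 1% and 5%, in 9 between 5% and 10%, in 21 between 10% and 20% and in 14 above 20%. Every nectarine library lay below every peach library in 68 of the 69 genes, against 3.67% of all tested genes, and the choice of genes fixed this direction. The exception, Prupe.3G218700.v2.1, had 0.0414 to 0.473 CPM in MN, 0.134 to 0.858 CPM in Sunraycer, 0.742 to 2.46 CPM in TN7 and 1.17 to 2.99 CPM in TN11.

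No count was found in MN for 7 members and in Sunraycer for 5, and 2 had none in either. One of these, Prupe.1G007400.v2.1, also had the lowest ratio between the peaches. It was at 0 in all 5 MN and all 5 Sunraycer libraries, at 7.55, 6.06, 7.62 and 6.10 CPM in TN7, and at 35.0, 52.0, 41.8, 44.3 and 49.4 CPM in TN11. All TN7 libraries lay far below all TN11 libraries, and the TN7 mean was 0.154 of the TN11 mean. Against a limit of 3 counts over an accession, its level was at least 240-fold lower in MN and at least 216-fold lower in Sunraycer than in TN7. The other, Prupe.4G121800.v2.1, was at 0 in all nectarine libraries, at 1.16, 2.61, 1.44 and 1.34 CPM in TN7, and at 2.22, 3.59, 2.53, 2.96 and 3.93 CPM in TN11. Its peach libraries overlapped, since TN7 2 was above TN11 1 and TN11 3. It was at least 57.1-fold lower in MN and at least 51.3-fold lower in Sunraycer than in TN7.

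Steep grades between the peaches were seen in a few other genes. Prupe.5G093500.v2.1 had 0, 0, 0, 0.166 and 0.288 CPM in MN, 0.326, 0.531, 0.201, 0.101 and 0 CPM in Sunraycer, 15.6, 30.9, 15.5 and 27.3 CPM in TN7, and 128, 139, 103, 110 and 115 CPM in TN11. The lowest TN11 library was above all TN7 libraries by a wide margin, and the TN7 mean was 0.188 of the TN11 mean. Prupe.4G197700.v2.1 was found in MN with 1 count, in library MN 3, and nowhere else in that accession. Its levels were 0.434, 0.163, 0, 0.0504 and 0.0596 CPM in Sunraycer, 4.87, 9.90, 5.25 and 6.58 CPM in TN7, and 23.1, 22.0, 9.86, 17.1 and 19.6 CPM in TN11. Only TN7 2 reached the level of TN11 3, and the ratio of means was 0.362. Prupe.7G215500.v2.1 averaged 0.604 ± 0.146 CPM in MN, 0.499 ± 0.157 CPM in Sunraycer, 5.18 ± 1.17 CPM in TN7 and 13.8 ± 1.14 CPM in TN11 (SD), with no overlap between the peaches. Prupe.6G026100.v2.1 (ratio of TN7 to TN11 0.377) and Prupe.1G490000.v2.1 (0.384) completed the 6 steepest and had TN7 means of 1.59 and 1.21 CPM.

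PpMYB25 was used as a yardstick for these grades. Its levels were 2.67, 2.26, 3.40, 4.48 and 4.23 CPM in MN, 1.19, 1.72, 3.02, 4.74 and 0.774 CPM in Sunraycer, 19.1, 14.6, 20.1 and 16.5 CPM in TN7, and 58.8, 33.5, 41.1, 44.8 and 48.7 CPM in TN11. The TN7 mean was 0.387 of the TN11 mean, and 6 of the 69 members had a lower ratio. Placed between the mean of both nectarines (0%) and TN11 (100%), TN7 stood at 34.6% for PpMYB25 and at a median of 56.4% for the members (range 15.4% to 65.8%). The higher nectarine mean of PpMYB25 was 19.4% of its TN7 mean, and 53 of the 69 members had less left in the nectarines by this measure. Both measures were limited by the choice of genes, so nothing is read from where PpMYB25 stands among the members.

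**Figure D2:**
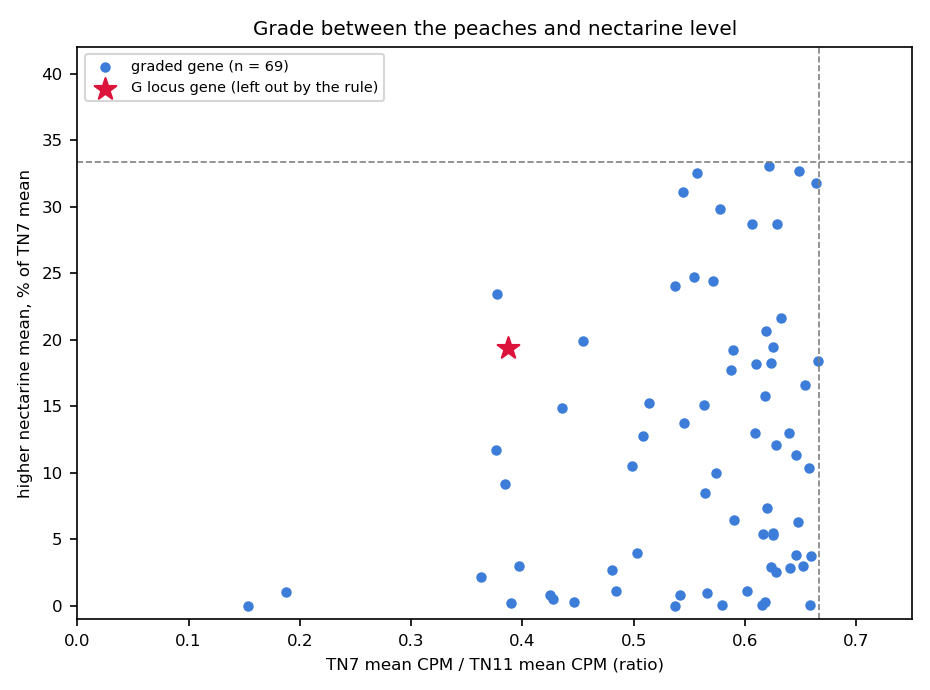
Ratio of the TN7 to the TN11 mean (x axis) against the higher nectarine mean in percent of the TN7 mean (y axis) for the 69 genes (points) and PpMYB25 (star, not a member), with the limits of the choice as dashed lines. Points crowd towards the limit on the right, and 6 of them lie left of the star.

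Of the 8 members with the highest mean CPM in TN7, 5 overlapped between the peaches. Prupe.7G265400.v2.1 had 8.84, 8.55, 6.90, 5.60 and 5.86 CPM in MN, 0.814, 4.04, 5.91, 3.93 and 3.10 CPM in Sunraycer, 182, 293, 192 and 97.9 CPM in TN7, and 265, 408, 162, 296 and 318 CPM in TN11. TN7 2 was above TN11 1, and TN11 3 was below 3 of the 4 TN7 libraries. Prupe.4G065700.v2.1 showed the same order of libraries, with 136, 238, 154 and 81.6 CPM in TN7 and 190, 349, 132, 251 and 270 CPM in TN11. Its nectarine means were 4.33 ± 0.580 CPM in MN and 2.02 ± 0.952 CPM in Sunraycer (SD, n = 5 each). Prupe.1G580500.v2.1, Prupe.1G251600.v2.1 and Prupe.6G257700.v2.1 overlapped too, each with TN7 2 above both TN11 1 and TN11 3, and had TN7 means 0.665, 0.652 and 0.625 of the TN11 means.

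Prupe.2G112800.v2.1 did not follow these libraries. It had 91.4, 62.8, 91.3 and 82.6 CPM in TN7 and 116, 109, 149, 151 and 157 CPM in TN11, so that TN7 2 was its lowest TN7 library and the peaches did not overlap. Its nectarine means were 0.508 ± 0.609 CPM in MN and 0.921 ± 1.62 CPM in Sunraycer (SD, n = 5 each), where Sunraycer 1 alone reached 3.80 CPM. Prupe.4G259400.v2.1 departed in TN7, where TN7 5 was highest, and not in TN11, where TN11 3 was lowest, and the peaches did not overlap. It had 77.2, 72.7, 57.1 and 86.1 CPM in TN7 and 123, 133, 108, 129 and 157 CPM in TN11.

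Across all members, every TN7 library was below every TN11 library in 34 genes (49.3%), against 6.16% of all tested genes. Since the choice used this contrast, the count describes how firm the grades are and no more. In the other 35 genes the peaches overlapped: TN7 2 was the highest TN7 library in 33 of them and TN11 3 the lowest TN11 library in 30. Overlap is defined by the highest TN7 and the lowest TN11 library, so counting extreme libraries among overlapping genes partly repeats that definition. Among all 69 members, TN7 2 was the highest TN7 library in 47 and TN11 3 the lowest TN11 library in 52. No share over all tested genes is at hand for these library counts, so nothing is read from them. Genes without overlap had a median ratio of 0.554 and a median TN7 mean of 4.59 CPM, against a ratio of 0.618 and a TN7 mean of 11.4 CPM in the overlapping ones.

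The members moved together from library to library within a peach accession, a pattern which the choice by accession means did not use. On the log2(CPM + 0.5) scale, the median member stood 0.39 above the TN7 mean in TN7 2, and 60 of 69 were above it. It stood −0.10 from that mean in TN7 1, −0.04 in TN7 3 and −0.17 in TN7 5. In TN11 3 the median member stood −0.31 from the TN11 mean, with 7 of 69 above it, whereas the other TN11 libraries lay between 0.00 and 0.18. The medians over all tested genes were 0.02 in TN7 2 and −0.04 in TN11 3. In summed levels, TN7 2 reached 1896 CPM and TN11 3 reached 1722 CPM, while the other TN7 libraries had 1072 to 1361 CPM and the other TN11 libraries 2268 to 2986 CPM.

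This shared movement was not particular to the graded genes. The 243 genes that were high in both peaches without a grade stood at 0.49 in TN7 2 and −0.35 in TN11 3, and the 14 oppositely graded genes at 0.38 and −0.19. As a description over the 9 peach libraries, the median correlation between the deviations of 2 members was 0.432, that between 2 of the 243 genes was 0.442, and that between 2 tested genes was 0.0149. PpMYB25 followed it in some libraries and not in others. In TN7 2 it stood −0.25 from its accession mean and was lowest of the TN7 libraries, and in TN11 2, where the members were high, it stood at −0.41 and was lowest of the TN11 libraries. In TN7 1 and TN7 3 it stood at 0.13 and 0.20, where the median member was below the mean. In TN7 5 it stood at −0.08, in TN11 3 at −0.12 and in TN11 5 at 0.13, on the same side of the mean as the members. PpMYB25 was highest of the TN11 libraries in TN11 1, at 0.395, where the median member stood at −0.004. For TN11 4 the values were 0.005 for PpMYB25 and 0.046 for the median member. Its deviations correlated negatively with those of 45 of the 69 members over these libraries, with a median of −0.22. Since the members moved together, these correlations are not separate results. No share over all tested genes or over the 243 genes is at hand, so nothing about the members is read from this count.

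**Figure D3:**
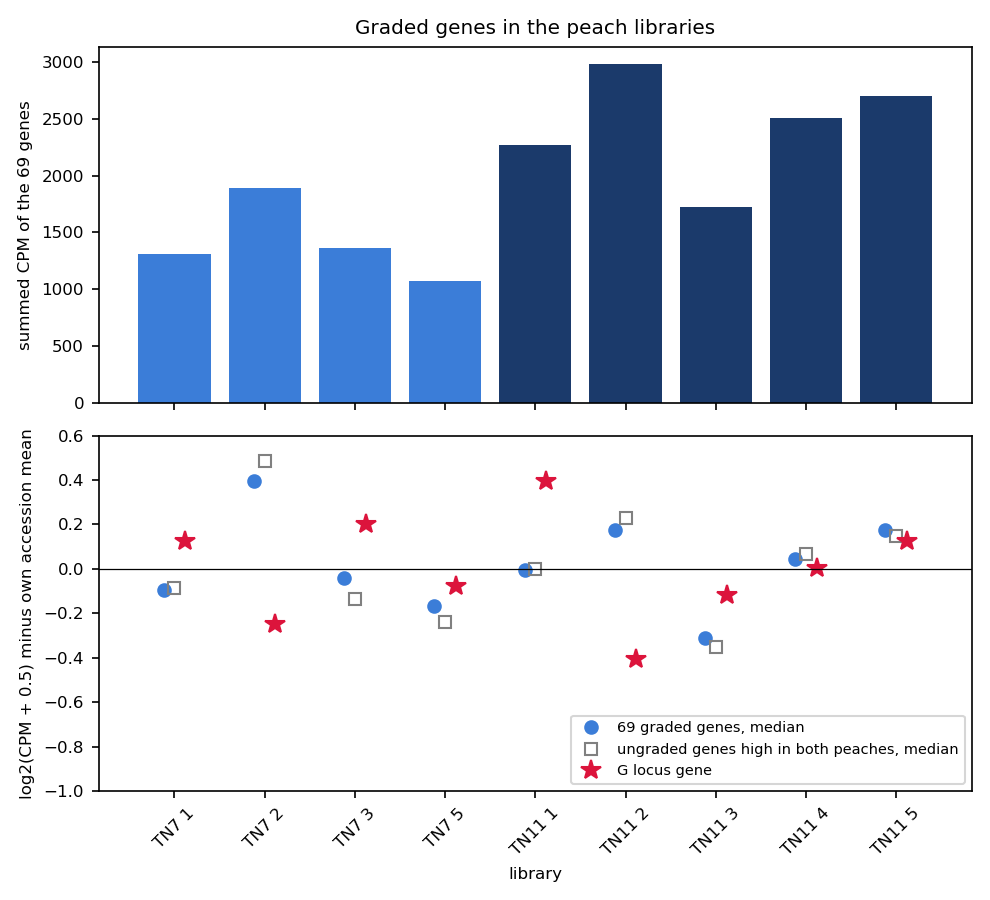
Peach libraries on the x axis, TN7 left of TN11. Bars show the summed CPM of the 69 genes, and symbols show the log2(CPM + 0.5) deviation from the own accession mean for the median member, the median of the 243 genes alike in both peaches, and PpMYB25. TN7 2 is high and TN11 3 low for both gene sets, and PpMYB25 is below its accession mean in TN7 2, TN7 5, TN11 2 and TN11 3.

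Depth and the main direction of spread within accessions were set beside this movement. TN7 2 had 20299403 counts and TN11 3 had 21308132, both inside the range of the other peach libraries. On that main direction (the first principal component of deviations from accession means, scaled so that the highest library has a score of 1), TN7 2 scored 0.00 and TN11 3 scored 0.14, while the TN7 libraries ran from −0.30 to 0.31. Correlations of the members with this direction had a median of 0.01 and quartiles of −0.36 and 0.30 over the 19 libraries, against quartiles of −0.59 and 0.55 for all tested genes. The 19 include the nectarine libraries, where both means of 45 members were below 1 CPM and leave little to correlate. Nothing is therefore read from these correlations on TN7 2 or TN11 3. What else differed between these libraries was not tested.

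The number of graded genes depended on these libraries. Without TN7 2, 134 genes met the same limits, 62 of the 69 among them. Without TN11 3, 105 genes met them, all 69 included. Leaving out any other single library gave 57 to 74 genes. There were 38 genes that met the limits whichever single library was left out. Without TN7 2 the peaches did not overlap in 51 of the 69 members, and without TN11 3 in 49. Leaving out a library can only make overlap rarer, for any gene. No share over all tested genes is at hand for these settings, so nothing is read from these counts.

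MN and Sunraycer were compared with each other because the choice of genes set no order between them, and because both are smooth but stated Gg and gg. Members were called in both directions. With edgeR's quasi-likelihood test, adjusted over all tested genes, a gene was called when its adjusted p was below 0.05 and the difference at least 2-fold. The accessions shared 1 estimate of the spread for each gene, although their spread was unequal. The median CV (SD in percent of the mean) over all tested genes was 13.9% in MN and 27.8% in Sunraycer. For members with a count it was 47.0% in MN and 65.5% in Sunraycer. The p-values and standard errors do not allow for this difference. Of the 69 members, 9 were higher in MN (13.0%, against 8.41% of all tested genes) and 12 were lower (17.4%, against 16.8%). Another 46 were not called and 2 had no count in either nectarine. Since all members had passed the filter on low counts through the peaches, these counts support nothing about the members as a set. On nectarine libraries alone 27 of the 69 passed it, and 11 of these were called, against 23.4% of all genes tested that way. They are 11 of the 21, and the other 10 did not pass the filter on nectarine libraries alone. Among the 67 with a count, 28 had a positive and 39 a negative log2 value. The median was −0.24 (−0.20 when genes at 0 in one nectarine were set to their bound and those with too few counts left out), against 0.04 for all tested genes. Both nectarine means were below 1 CPM in 45 of the 69 members and in 11 of the 21 called ones.

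Among the genes higher in MN, Prupe.6G324200.v2.1 was the best measured. It had 13.7, 10.4, 13.4, 10.9 and 12.1 CPM in MN and 2.66, 5.68, 3.02, 3.12 and 2.62 CPM in Sunraycer, with no overlap. The log2 fold change was 1.64 (SE 0.191, adjusted p = 7.63e-06 in edgeR). It averaged 36.7 CPM in TN7 and 58.9 CPM in TN11, and the MN mean was 33.1% of the TN7 mean. Prupe.1G383800.v2.1 had 0.653, 0.543, 0.662, 0.746 and 0.864 CPM in MN and 0, 0.0409, 0.134, 0.101 and 0 CPM in Sunraycer, again without overlap (log2 3.41, SE 0.401, edgeR adjusted p = 8.53e-06). Prupe.2G280100.v2.1 had 1.68 ± 0.334 CPM in MN and 0.538 ± 0.375 CPM in Sunraycer (SD, n = 5 each; log2 1.54, edgeR adjusted p = 0.00223). The next pair passed the filter through the peaches alone. Prupe.3G066100.v2.1 had 17 counts over the MN and 1 over the Sunraycer libraries, an MN to Sunraycer ratio of 15.3 (95% interval from the lower count 2.74 to 604). Prupe.1G157500.v2.1 had 5 counts in MN and none in Sunraycer, at least 1.498-fold higher in MN. It was not called without MN 4 (edgeR adjusted p = 0.135) or without Sunraycer 2 (edgeR adjusted p = 0.0552), and its adjusted p ran from 0.0199 to 0.193 over all alternatives.

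Among the genes lower in MN, Prupe.1G081600.v2.1 had 0.178, 0.136, 0.378, 0.207 and 0.336 CPM in MN and 10.9, 1.10, 2.48, 1.66 and 1.31 CPM in Sunraycer. The libraries did not overlap, and Sunraycer 1 stood far above the rest (log2 −4.01, SE 0.663, edgeR adjusted p = 0.000152). Prupe.7G085800.v2.1 had 0.831, 0.226, 0.378, 0.290 and 0.192 CPM in MN and 1.90, 4.37, 1.14, 1.11 and 1.25 CPM in Sunraycer (log2 −2.58, SE 0.430, edgeR adjusted p = 0.000163). Prupe.5G114700.v2.1 averaged 0.294 ± 0.175 CPM in MN and 1.46 ± 1.05 CPM in Sunraycer (SD, n = 5 each; log2 −2.52, edgeR adjusted p = 0.000456). The remaining pair also passed through the peaches alone. Prupe.2G108300.v2.1 was at 0 in MN, with 11 counts in Sunraycer, and so at least 4.08-fold lower in MN. It was not called without Sunraycer 1 (edgeR adjusted p = 0.0777), and its adjusted p ran from 0.00106 to 0.345 over all alternatives. Prupe.4G197700.v2.1, one of the steeply graded genes, had 1 count in MN and 14 in Sunraycer, a Sunraycer to MN ratio of 15.6 (95% interval from the lower count 2.80 to 615).

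Of the 8 members with the highest TN7 mean, 1 was called between the nectarines. The pair at the top, Prupe.7G265400.v2.1 (log2 0.87, SE 0.358, edgeR adjusted p = 0.0441) and Prupe.4G065700.v2.1 (log2 0.93, SE 0.337, edgeR adjusted p = 0.0244) were below the 2-fold minimum, and Prupe.6G257700.v2.1 was above it (log2 1.39, SE 0.370, edgeR adjusted p = 0.00447). MN and Sunraycer also differed along the main direction of spread, with scores of −0.37 ± 0.221 in MN and 0.45 ± 0.332 in Sunraycer (SD, n = 5 each) that did not overlap. With this score as a covariate 5 of the 21 members stayed called, 3 higher and 2 lower in MN, while calls over all tested genes went down to 4.35%, against 25.2% without it. That direction cannot be told apart from the difference between both accessions.

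**Figure D4:**
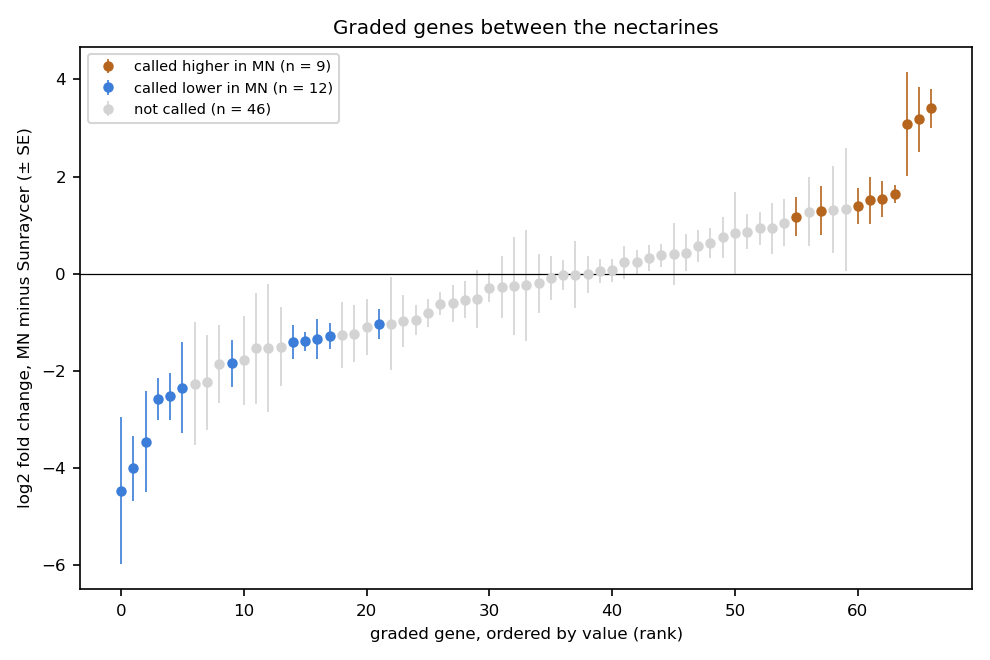
Log2 fold change of MN minus Sunraycer with its standard error (y axis) for the 67 graded genes with a count in a nectarine, ordered by value (x axis). Colours mark 9 genes called higher and 12 called lower in MN, and grey the 46 not called, spread on both sides of 0.

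The members were spread over the genome by the chromosome number in their IDs. Chromosome 1 held 19 of the 69 (27.5%, against 21.9% of all genes in the table), chromosome 4 held 12 (17.4% against 10.8%), and chromosome 8 held none (10.1% of the table). Of the 326 genes high in both peaches, 21 (6.44%) were on chromosome 8. Chromosome 5, which carries the G locus, held 7 members (10.1% against 9.19%). There were 4 pairs of members within 10 places of each other in the order of IDs, and reads shared between similar neighbours could have been divided between them.

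Both members of each pair were graded, but not to the same extent. Prupe.4G259400.v2.1 and Prupe.4G259500.v2.1 are direct neighbours, with means of 11.0 and 2.95 CPM in MN, 6.71 and 2.14 CPM in Sunraycer, 73.3 and 54.0 CPM in TN7, and 130 and 86.3 CPM in TN11. The next ID, Prupe.4G259600.v2.1, is no member: its means were 0.0794 CPM in MN, 0.662 CPM in Sunraycer, 14.3 CPM in TN7 and 2.70 CPM in TN11, which is the opposite order in the peaches. Prupe.2G112800.v2.1 and Prupe.2G113000.v2.1, with 1 gene between them, had TN7 means of 82.0 and 5.03 CPM and TN11 means of 136 and 12.7 CPM. The gene between, Prupe.2G112900.v2.1, is no member. Its means were 0.0378 CPM in MN, 0.0884 CPM in Sunraycer, 0.117 CPM in TN7 and 18.4 CPM in TN11. Prupe.6G274800.v2.1 and Prupe.6G274900.v2.1 are also direct neighbours, with TN7 means of 4.57 and 1.80 CPM and TN11 means of 7.32 and 3.61 CPM. Prupe.1G383800.v2.1 and Prupe.1G384100.v2.1 went opposite ways between the nectarines: Prupe.1G383800.v2.1 was higher in MN, as given above, and Prupe.1G384100.v2.1 was lower, at 2.17 CPM in MN and 4.86 CPM in Sunraycer (log2 −1.34, SE 0.417, edgeR adjusted p = 0.0114). Of 100 tested genes directly beside a member and not members themselves, 5 (5.0%) were high in both peaches by the limits above. Among all tested genes, members included, the share was 1.68%.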

How the data were processed

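The authors deposited 1 table of estimated counts per gene, without normalization and with whole numbers only (0 values were not whole). The submitters' processing notes list R 4.1.1, RSEM 1.2.31, DESeq2 and Bowtie2 2.5.1 and do not say what each did. Per the labels' protocols, TruSeq Stranded mRNA libraries were made from RNeasy total RNA. The build and the strand setting were not given in the sources used here, nor were filters. Groups follow the sample titles, and TN7 4 was not analysed here.

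CPM was computed from column totals and averaged per accession to find the members. The whole table was filtered with filterByExpr (19360 genes kept), TMM-scaled, and entered in edgeR's quasi-likelihood test (glmQLFit, glmQLFTest) with all 19 libraries, 1 mean per accession and Benjamini-Hochberg adjustment. The standard error is the log2 fold change divided by the square root of F. The fit was tested on simulated data. No 2 libraries of an accession agreed within sampling noise (smallest chi-square per degree of freedom 7.13). Intervals of ratios are exact Poisson at 95% for the lower count alone, and they and the limit of 3 counts cover counting error only. The members, lists and tests were chosen with earlier results of these data known. Named members are the 8 with the highest TN7 mean, the 6 with the lowest TN7 to TN11 ratio, up to 4 without a nectarine count (2 existed), and up to 5 called in each direction between the nectarines. Planned keyword lists and tissue markers were void without product names. Also named are genes at the limits, neighbouring IDs and the 1 exception to the separation of nectarines and peaches, which were named after their values were seen. Software was Python 3.11.15 with SciPy 1.17.1 and R 4.3.3 with DESeq2 1.42.0, edgeR 4.0.16 and limma 3.58.1.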

Additional observations from a re-analysis of the deposited data

Results flagged for a closer look

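In 7 of 92 sets of libraries, 1 library stood apart from the rest of its accession by Dixon's criterion, where chance alone gives about 1 in 20 for normally distributed values. The sets do not cover every member in every accession. Of the 7, 5 were in Sunraycer. Prupe.1G081600.v2.1 had 10.9 CPM in Sunraycer 1 against 1.10 to 2.48 CPM in the other Sunraycer libraries, and Prupe.2G112800.v2.1 had 3.80 CPM there against 0 to 0.403 CPM. Prupe.6G324200.v2.1 had 5.68 CPM in Sunraycer 2 against 2.62 to 3.12 CPM, and Prupe.7G085800.v2.1 had 4.37 CPM there against 1.11 to 1.90 CPM. Prupe.5G114700.v2.1 had 13.8 CPM in TN11 2 against 9.57 to 10.3 CPM in the other TN11 libraries. The remaining pair are single counts: Prupe.4G197700.v2.1 at 0.0452 CPM in MN 3 and Prupe.3G066100.v2.1 at 0.0672 CPM in Sunraycer 3, with no count in the other libraries of the same accession. A single count among zeros always meets the criterion, so the rate of 1 in 20 does not apply to this pair.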

How the results depend on the processing

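The rule found 69 genes, and 106 with accession medians in place of means (59 shared) and 16 with a 2-fold limit between the peaches. TMM-scaled CPM gave 75 (67 shared), a 5-fold limit against the nectarines 55, and a TN7 minimum of 0.5 CPM 81. Leaving out each library gave 57 to 134 genes. In alternatives chosen after seeing the data, 34 to 51 members had no overlap between the peaches with a peach library left out (37 with TMM). No share over all tested genes is at hand for these counts. The TMM medians, also chosen after seeing the data, were 0.42 in TN7 2 and −0.28 in TN11 3. The 21 members called between MN and Sunraycer (25.2% of all tested genes were called) became 11 when only these accessions were fitted, where the filter left 27 members to test (23.4% of all), and 5 once the score on the main direction of spread entered as covariate (4.35% of all); the cause was not tested. Leaving out each nectarine library gave 18 to 26, while the share called of all tested genes ran from 19.98% to 28.88%. The lowest share came without Sunraycer 1 (18 members) and the highest without Sunraycer 3 (26 members). Without MN 3, 18 members were called at a share of 23.59%. DESeq2 called 24 (24.1% of all), limma-voom 14 (26.7%), size factors of DESeq2 in edgeR 23 (25.4%), the data without a filter 21 (22.6%) and no fold minimum 26 (60.6%). MN and Sunraycer share 3 replicate numbers, whose libraries correlated by −0.324, 0.375 and −0.114 in their deviations. Same-numbered libraries correlated by 0.486, 0.424 and 0.419 for MN and TN7, and by −0.0223, −0.380, −0.340 and −0.271 for MN and TN11. The remaining pairs of accessions were mixed in sign. So few values cannot decide whether the numbers pair libraries. With the replicate block 18 members were called (25.8% of all), 14 of them shared with the 21. Of the checks on single named members, 370 stayed on the same side of the threshold, called or not, while 16 lost and 12 gained a call, and none of the called values changed sign. Tests of pathway lists were not run, since no ID could be matched to a product name. Values near 0 in the nectarines rest on few counts.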
